A study of Bos taurus with 8 samples.

Results

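WNT7A, WNT5A, FZD7, DKK1, DKK3, SFRP1, DVL1, CTNNB1, TCF7L2 and LEF1 are 10 genes that span the WNT pathway, from its ligands and a receptor through its secreted antagonists to beta-catenin and its nuclear partners. They were chosen by name, with earlier results of these data known. Their probes were found through the RefSeq transcript that each probe of the array was designed for. The 10 genes had 20 probes, out of 43653 probes on the array and 12603 genes that could be named. WNT7A, WNT5A, DKK3, DVL1 and LEF1 had 1 probe each, and the other 5 genes had 2 to 4.

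The cells came from HanWoo, a Korean breed of cattle. Bovine embryo-derived stem-like cells (eSLCs) are colonies that grew from whole blastocysts on inactivated murine STO feeder cells, and each array held 1 line. Lines I2 (passage 35) and I9 (passage 30) came from embryos produced in vitro (IVP), N2 (passage 36) and N7 (passage 30) from somatic cell nuclear transfer (NT) embryos, for which ear skin cells were the donors, and P1 (passage 31) and P4 (passage 36) from parthenogenetic (PA) embryos, which have no sperm genome. All 6 eSLC lines grew in a medium with the N2 and B27 supplements, the MEK inhibitor PD184352, the FGF receptor inhibitor SU5402 and the GSK3 inhibitor CHIR99021. The 2 arrays of somatic cells (SCs), at passages 5 and 10, held cells grown in DMEM with serum and without inhibitors, and the labels do not name their tissue. Cell type, medium and passage therefore changed together and cannot be told apart. Feeder cells are described for the eSLCs alone.

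WNT ligands are secreted lipid-modified proteins that bind Frizzled receptors and their co-receptors. The signal passes through Dishevelled and stops a complex of AXIN, APC, casein kinase and GSK3 from marking beta-catenin for degradation, so that beta-catenin enters the nucleus and joins the TCF and LEF factors. DKK proteins act on the co-receptors and SFRP proteins bind the ligands outside the cell. Chemical inhibition of GSK3 stabilises beta-catenin without a ligand. In early embryos the pathway takes part in the choice between lineages.

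Signals are given here on a scale on which the 75th percentile of each array is 1000. Differences are of log2 signals, eSLC minus SC unless stated, with the standard error (SE) of limma. A probe was called higher or lower if its p-value, adjusted over all 34426 probes tested (Benjamini-Hochberg), was under 0.05 and its difference at least 2-fold. Signals under 13.3 were raised to that floor. A level from 1 probe cannot be set against that of another. All 20 probes were well above background on both arrays of at least 1 of the 4 conditions and were tested.

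On the arrays 71.2 to 76.7% of spots were well above background and none was saturated. Slide 1 carried the IVP lines, N7 and passage 5 of the SCs, and slide 2 carried the PA lines, N2 and passage 10. Of 14 trophectoderm markers tested 12 were called higher in eSLCs and 0 lower. Of 12 fibroblast markers 10 were called lower, and the summed signal of all 12 was 13500 to 69840 in the eSLC lines, 703000 in SC P5 and 867200 in SC P10. FN1, which was not called, made up 64260 of the 69840 in N7 and read 39820 and 46750 in SCs. Of 5 markers of the inner cell mass LIN28A was called higher and SOX2 lower, while POU5F1 and NANOG were not called. POU5F1 read 898.1 in N7, 30.7 to 100.8 in the other lines and 16.3 and 26.0 in SCs. NANOG lay near the floor, at 13.3 to 35.4 in the lines, and was below background in SCs. In line N7 the summed signal of 6 hypoblast markers was 128600, against 3652 to 8897 in the other 5 lines and 14760 and 12850 in SCs. APOA1 made up 112600 of that sum, and by the brightest probes 4 of the 6 genes were highest in N7 among the lines. SOX17 (2664, against 1908 to 2946) was not, and AFP was lowest there but near the floor in every line. The other probe of SOX17 had a difference from SCs of 3.11, against -0.345 for the brightest, and neither was called. The 2 SC arrays are 2 passages of cells that the labels do not give as separate cultures, and p-values measure the spread between these arrays only, with 2 arrays per condition.

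Against SCs, the eSLCs had higher signals for the ligand WNT7A and for 1 of 3 probes of the receptor FZD7, and lower signals for the ligand WNT5A, the antagonists DKK1 and DKK3 and the nuclear factors TCF7L2 and LEF1. The 4 probes of CTNNB1, the probe of DVL1 and the 3 probes of SFRP1 were not called. In all, 2 of the 20 probes were called higher, where 17.0% of all probes were, and 8 were called lower, where 16.4% of all probes were. Since the genes were chosen with earlier results of these data known, these shares are a description only. The signals of eSLCs and SCs did not overlap for 12 of the 20 probes, 2 of them higher in eSLCs, which is close to the share among all probes, 54.6%. The median difference was -0.74 over the 20 probes and 0.14 over all probes tested.

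**Figure D1:**
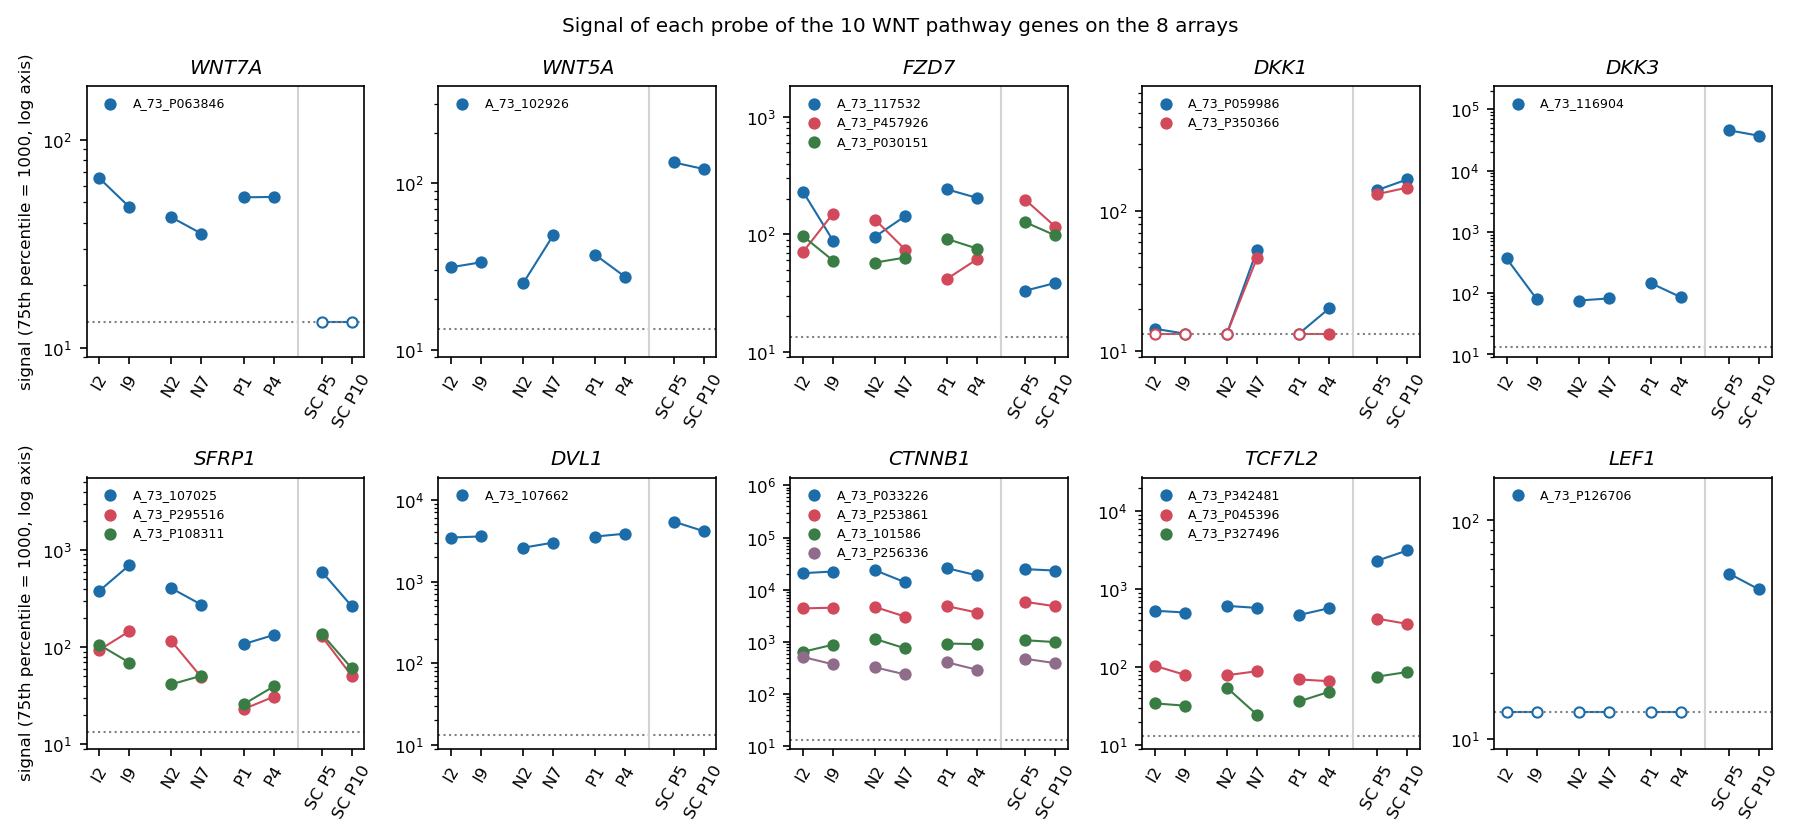
Signal of each probe (vertical log axis, 75th percentile of the array set to 1000) on the 6 eSLC arrays and, right of the grey line, the 2 SC arrays; colours mark the probes of a gene, lines join the arrays of a condition, open circles were not well above background and the dotted line is the floor of 13.3. WNT7A stands above the floor in eSLCs alone, LEF1 in SCs alone, and the 3 probes of FZD7 do not move together.

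The ligands WNT7A and WNT5A moved in opposite directions. WNT7A, which can act through beta-catenin as well as without it and is known from epithelia and the reproductive tract, had a signal of 65.4 in I2, 47.5 in I9, 42.4 in N2, 35.4 in N7, 52.9 in P1 and 53.1 in P4, and was not well above background on either SC array. All 6 eSLC lines were thus measured and SCs gave only a bound. The signal of WNT7A was at least 3.65-fold higher in eSLCs than in SCs (adjusted p = 0.000662 with SCs at the floor). This bound, like the others below, sets the mean of the brighter group against the floor of 13.3. The difference rests on that floor, and with a floor 2 times as high it was 0.87, short of the minimum fold (adjusted p = 0.0102).

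WNT5A, the ligand best known for signalling without beta-catenin through ROR receptors, had signals of 31.2 and 33.45 in the IVP lines, 25.1 and 48.7 in N2 and N7, 37.0 and 27.3 in the PA lines, and 133.1 and 121.4 in SC P5 and SC P10. Every eSLC line lay below both SC arrays. The difference was -1.95 (SE 0.28, adjusted p = 0.00351), a 3.85-fold lower signal, and was -1.85 within slide 1 and -2.05 within slide 2. Without SC P5 it was -1.88 and no longer called (adjusted p = 0.052).

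FZD7, a Frizzled receptor expressed in pluripotent cells of human and mouse, gave different answers from its 3 probes, all designed for 1 RefSeq transcript. The brightest probe (A_73_117532) read 231.1 in I2, 88.5 in I9, 95.5 in N2, 142.7 in N7, 240.9 in P1 and 203.9 in P4, against 33.2 and 38.55 in SCs. It was higher in every eSLC line, by 2.11 (SE 0.39, adjusted p = 0.00828), or 4.33-fold, and by 2.11 and 2.12 within slides 1 and 2. The call was lost without SC P5 (adjusted p = 0.0938) and without SC P10 (adjusted p = 0.073).

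The other probes of FZD7 had differences below 0. Probe A_73_P030151 read 57.5 to 96.6 in eSLCs and 126.7 and 97.7 in SCs, with a difference of -0.62 (SE 0.23, adjusted p = 0.0799). Probe A_73_P457926 read 41.9 to 149.9 in eSLCs and 196.7 and 115.8 in SCs, with a difference of -0.91 (SE 0.42, adjusted p = 0.134). Neither passed the test, and the mean of the 3 probes of FZD7 was not called. Among the eSLC lines the probes also moved apart, since P1 was the highest line by the brightest probe and the lowest by A_73_P457926. Which probe follows the FZD7 transcript was not tested.

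DKK3 showed the largest difference of the 10 genes. This member of the Dickkopf family, the most divergent of it and unlike DKK1 not established as a blocker of the co-receptors, read 368.3 in I2, 80.2 in I9, 75.8 in N2, 82.0 in N7, 145.5 in P1 and 85.9 in P4. In SCs it read 45230 and 36950. The lowest SC value lay far above the highest eSLC value. The difference was -8.48 (SE 0.58, adjusted p = 0.000244), 356-fold, and it was called under every alternative run, between -8.84 and -8.03.

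DKK1, which blocks the LRP co-receptors and is also a target of the pathway, had 2 probes that gave nearly the same difference. Probe A_73_P059986 read 140.8 and 168.0 in SCs and 52.4 in N7, 20.1 in P4 and 14.4 in I2, and was not well above background in I9, N2 and P1. Probe A_73_P350366 read 131.7 and 146.9 in SCs and 46.0 in N7 and was at the floor in the other 5 lines. Both SC arrays lay above every line, and N7 lay above the other lines by both probes. The differences were -3.09 (SE 0.52, adjusted p = 0.00602) and -3.09 (SE 0.45, adjusted p = 0.00362), on 3 and 2 measured eSLC arrays of 6. Both IVP lines were below background by the second probe, whose signal was at least 10.5-fold lower in them than in SCs. The calls of the first and second probe were lost without SC P5 (adjusted p = 0.0679 and 0.0517) and without SC P10 (adjusted p = 0.0763 and 0.0544).

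Of the 6 hypoblast markers, each by its brightest probe, GATA4, HNF4A, APOA1 and PDGFRA were highest in N7, as DKK1 was, and SOX17 and AFP were not. GATA4 read 2918 there and 23.1 to 179.8 in the other lines, and AFP read 15.9 there and 20.1 to 26.8 in the others. Without N7 the DKK1 differences were -3.42 (adjusted p = 0.000814) and -3.39 (adjusted p = 0.000158), so DKK1 was called lower with and without that line. In bulk RNA, fewer cells that express a gene and less RNA per cell cannot be told apart.

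SFRP1, a soluble protein that binds WNT ligands, was not called between eSLCs and SCs. By its brightest probe it varied more within each group than the other members did by theirs. The brightest probe (A_73_107025) read 379.6 and 698.3 in I2 and I9, 403.8 and 273.5 in N2 and N7, 107.5 and 133.3 in P1 and P4, and 600.4 and 264.1 in SC P5 and SC P10. The 2 PA lines were the lowest of all 8 arrays, the SC passages differed 2.27-fold, and eSLCs and SCs overlapped. The difference was -0.54 (SE 0.41, 95% interval -1.55 to 0.47, adjusted p = 0.324), and the dimmer probes A_73_P295516 and A_73_P108311 had -0.39 (SE 0.50) and -0.86 (SE 0.38). Without SC P5 the difference of the brightest probe was 0.05 and that of A_73_P295516 was 0.28.

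PA lines taken alone against SCs had SFRP1 differences of -1.73 (SE 0.50, adjusted p = 0.0406), -1.60 (SE 0.61, adjusted p = 0.087) and -1.52 (SE 0.46, adjusted p = 0.0484) by the 3 probes in the order of brightness, and the calls were of the brightest and the dimmest probe. Those 2 calls were lost under 17 of the alternatives each, slide as a block among them (adjusted p = 0.112 and 0.108) and SC P5 left out (adjusted p = 0.189 and 0.199). Both PA lines share slide 2 with N2 and SC P10, which read 403.8 and 264.1 by the brightest probe. P1 and P4 read 107.5 and 133.3 there, and no PA line was on slide 1. Beyond the fit with slide as a block, the part of the slide in the PA signals was not tested.

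Inside the cell, DVL1 and CTNNB1 differed little. DVL1, a Dishevelled protein that relays the signal from the receptor, read 3455 and 3566 in I2 and I9, 2594 and 2997 in N2 and N7, 3555 and 3853 in P1 and P4, and 5421 and 4136 in SCs. Every eSLC line lay below both SC arrays, by -0.52 (SE 0.16, adjusted p = 0.0433), or 1.43-fold, which is under the minimum fold. The direction depends on the signal column. In the deposited table of normalized values the difference of DVL1 was 2.46 (adjusted p = 0.00725).

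CTNNB1, which encodes beta-catenin, had 4 probes. The brightest (A_73_P033226) read 13950 to 25880 in eSLCs, with a median of 21590, and 24880 and 23310 in SCs, so that the groups overlapped. The 4 differences were -0.23 (SE 0.25), -0.36 (SE 0.22), -0.26 (SE 0.22) and -0.31 (SE 0.23), with adjusted p from 0.236 to 0.482. The 95% intervals reached from -0.91 at the lowest to 0.38 at the highest, which leaves a 2-fold difference outside them. In the deposited table of normalized values 1 of the 4 probes (A_73_101586) had a difference of 1.51 (adjusted p = 0.0565). RNA level says nothing of the amount of beta-catenin protein, which the pathway sets through degradation.

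TCF7L2, the TCF factor through which beta-catenin acts in many tissues, was lower in eSLCs by all 3 probes. The brightest (A_73_P342481) read 530.2, 503.1, 611.9, 576.1, 467.0 and 572.0 in I2, I9, N2, N7, P1 and P4, and 2319 and 3145 in SCs. The 6 lines lay within 1.31-fold of each other and below both SC arrays. The difference was -2.32 (SE 0.17, adjusted p = 0.000321), 4.99-fold, and -2.11 and -2.52 within slides 1 and 2. The second probe (A_73_P045396) gave -2.27 (SE 0.16, adjusted p = 0.000274).

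The dimmest probe of TCF7L2 (A_73_P327496) read 24.6 to 54.7 in eSLCs and 75.7 and 86.9 in SCs, a difference of -1.13 (SE 0.32, adjusted p = 0.0356). It was called in this comparison and in none of the 3 single origins, and 12 alternatives lost it, among them each of SC P5 (adjusted p = 0.159), SC P10 (0.21), I2 (0.0833), I9 (0.0785), N7 (0.0132, under 2-fold), P1 (0.0843) and P4 (0.0709) left out.

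LEF1, the partner of beta-catenin that is itself induced by the pathway in many cells, was not well above background on any of the 6 eSLC arrays and read 57.1 and 48.3 in SC P5 and SC P10. Its signal was at least 3.96-fold lower in eSLCs than in SCs (adjusted p = 0.000181 with eSLCs at the floor). With a floor 2 times as high the fitted difference was -0.98, short of the minimum fold (adjusted p = 0.00086). LEF1 and WNT7A thus had opposite patterns, each detected in 1 of the groups alone.

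**Figure D2:**
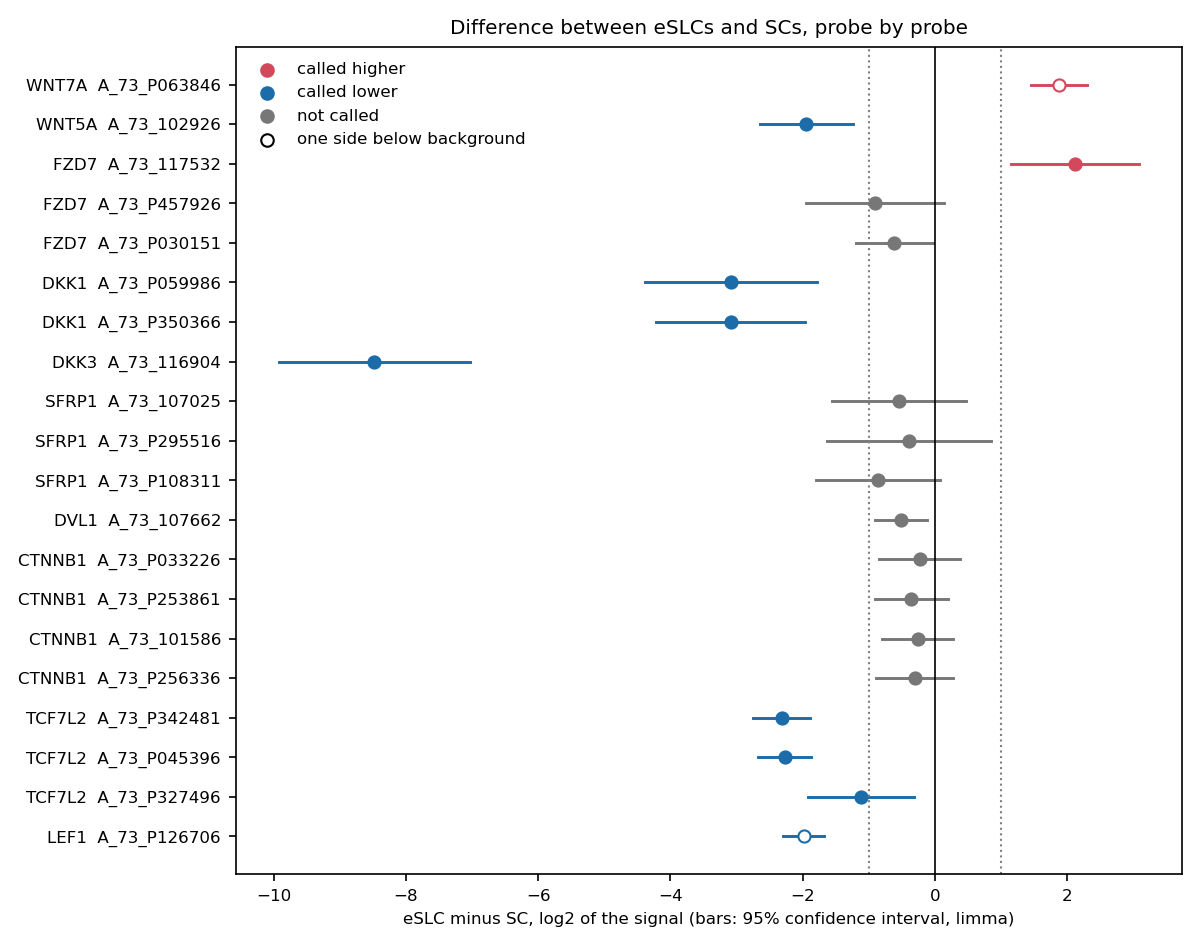
Difference in log2 signal, eSLC minus SC (horizontal axis), of the 20 probes, with 95% confidence intervals from limma; red and blue mark probes called higher and lower, grey those not called, open circles a group below background, and dotted lines a 2-fold difference. Of the 20 probes 2 were called higher and 8 lower, and DKK3 lies farthest from 0 at -8.48.

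The 3 embryo origins were each compared with the same 2 SC arrays. Of the 20 probes, IVP lines had 2 called higher and 7 lower (15.4% and 15.0% of all probes), NT lines 2 and 7 (13.3% and 14.2%) and PA lines 2 and 9 (17.2% and 15.7%). WNT7A was at least 4.2-fold higher than SCs in IVP, at least 2.92-fold higher in NT and at least 3.99-fold higher in PA lines. The brightest probe of FZD7 was 4.0-fold, 3.26-fold and 6.2-fold higher. WNT5A was 3.93-fold, 3.64-fold and 4.0-fold lower, and DKK3 was 238-fold, 519-fold and 366-fold lower. The brightest probe of TCF7L2 was 5.23-fold, 4.55-fold and 5.23-fold lower. SFRP1 was called in PA lines and not in IVP or NT lines.

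Between the origins themselves no member was called. For NT against IVP lines 0% of all probes were called, and 1 of the 20 member probes had an unadjusted p under 0.05 by limma, that of WNT7A at -0.53 (SE 0.21, adjusted p = 1.0). For PA against IVP lines 0% of all probes were called, and the 3 probes of SFRP1 had an unadjusted p under 0.05, with differences of -2.10 (SE 0.50), -2.13 (SE 0.61) and -1.43 (SE 0.46) and an adjusted p of 0.806 each. By the methods' t-test 1 of the 10 genes was called lower in PA lines without adjustment and 0 after it. The intervals of SFRP1 were wide, from -3.34 to -0.86 for the brightest probe. Both IVP lines were on slide 1 and both PA lines on slide 2, so origin and slide cannot be told apart in that comparison.

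**Figure D3:**
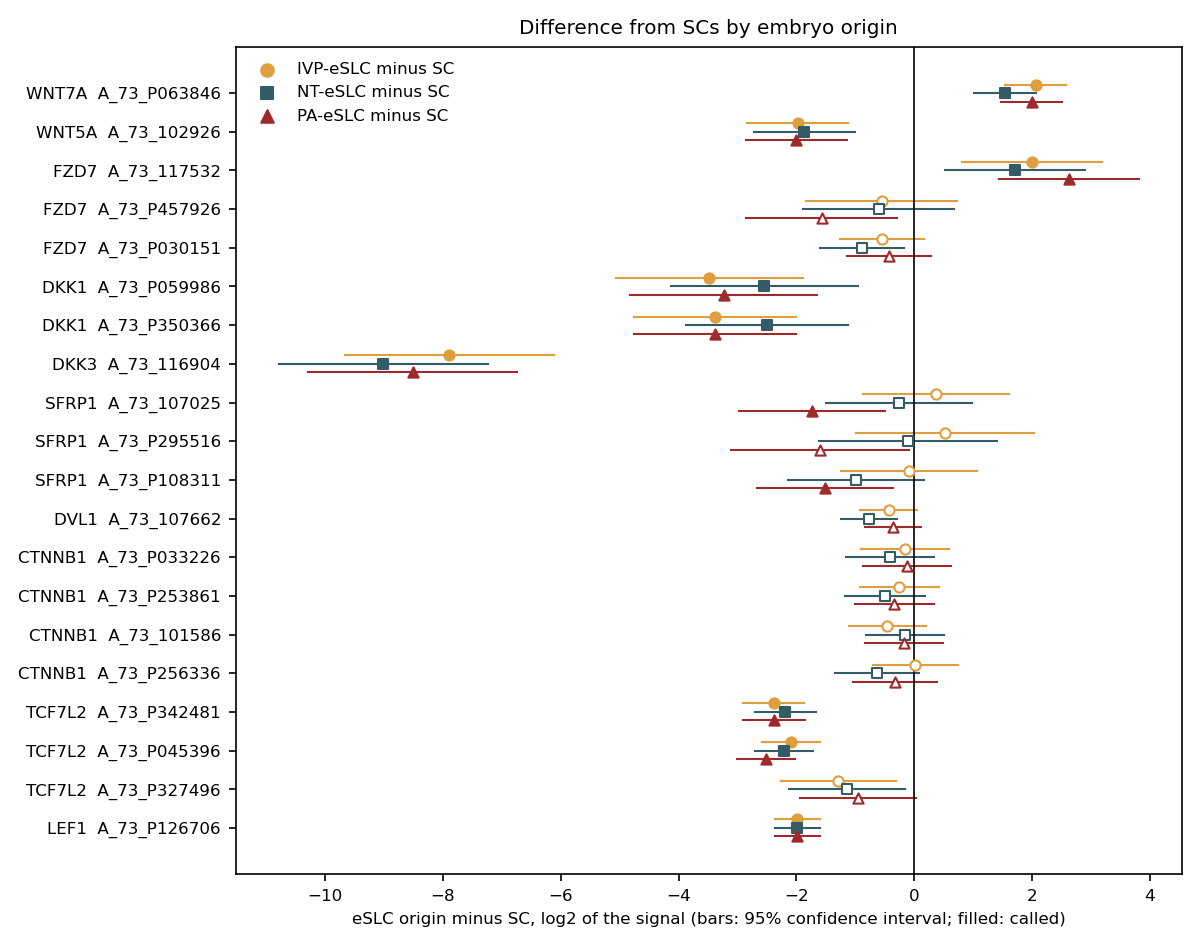
Difference in log2 signal from SCs (horizontal axis) for IVP-, NT- and PA-eSLCs, 2 lines each, with 95% confidence intervals from limma; filled symbols were called and open ones were not. The 3 origins lie close together for WNT5A and TCF7L2, while the 3 probes of SFRP1 are lower in PA lines, at -1.73, -1.60 and -1.52, than in IVP lines, at 0.37, 0.53 and -0.09. The IVP and PA lines were on different slides.

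Among the 6 eSLC lines the members varied to different degrees. The highest line was 1.31 times the lowest for the brightest probe of TCF7L2, 1.49 times for DVL1, 1.85 times for WNT7A, 1.86 times for the brightest probe of CTNNB1 and 1.94 times for WNT5A. It was 2.72 times for the brightest probe of FZD7, 4.86 times for DKK3 and 6.5 times for the brightest probe of SFRP1. By the brightest probes no single line was highest throughout, since I2 led for WNT7A and DKK3, N7 for WNT5A and DKK1, I9 for SFRP1, P1 for FZD7 and CTNNB1 and P4 for DVL1.

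To set the members in their pathway, 108 other WNT genes were listed by role, of which 68 had a named probe and 59 were tested by their brightest probe. Of the 59, 13 were called higher in eSLCs and 16 lower, or 15 and 21 of 69 with the members. Over all 10977 genes 19.3% were called higher and 15.4% lower. The median difference was 0.11 over the 59 genes, 0.04 over the 69 and 0.23 over all genes. The lists too were chosen with earlier results of these data known, and their counts, which differed by role, are a description.

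Secreted antagonists were the list with the largest share of lower calls. Of 9 tested, 6 were called lower and 0 higher, with a median of -3.09. SFRP4 read 9636 and 7316 in SCs and was at the floor on all 6 eSLC arrays, at least 632-fold lower. Its adjusted p of 3.37e-06 by limma was taken with eSLCs at the floor, where they have no spread. SFRP2 read 4260 and 7279 in SCs and 14.9 to 203.4 in eSLCs, a difference of -6.35 (SE 0.73, adjusted p = 0.00149). Both are close relatives of SFRP1. FRZB and SFRP5 were not called, at 0.41 and -0.07. The fibroblast markers moved with this list: LUM and POSTN, matrix proteins of fibroblasts, read 13.3 to 99.0 and 13.3 to 29.1 in eSLCs and at least 7655 in SCs. The part of the cell type in the antagonist signals was not tested.

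Of 7 ligands tested 2 were called higher and 2 lower. WNT6, a ligand also expressed by epithelia, was below background in both SC arrays and read 731.4 to 2310 in the eSLC lines, at least 86-fold higher (adjusted p = 0.000404). All 3 probes of WNT6 were called, with differences from 1.88 to 6.43. WNT2 was the reverse, at the floor in every eSLC line and 53.8 and 73.9 in SCs, at least 4.75-fold lower. WLS, which carries WNT proteins to the cell surface, was higher by 1.90 (SE 0.18, adjusted p = 0.000751). WNT1, WNT3, WNT8A and WNT16 had probes that were not above background on both arrays of any condition.

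Of 7 receptors and co-receptors 2 were called higher and 3 lower. FZD10 was higher by 2.72 (SE 0.18), with 96.2 to 178.3 in eSLCs and 24.3 and 17.7 in SCs. ROR2, a receptor for WNT5A, was lower at -4.33 (SE 1.13, adjusted p = 0.0264), and PTK7 at -2.09 (SE 0.18, adjusted p = 0.000538). The other probe of PTK7 had -0.59 and was not called, and in the deposited table of normalized values PTK7 had -0.93 (adjusted p = 0.247). The call of ROR2 was lost without each of I2, I9, P1, P4, SC P5 and SC P10 (adjusted p from 0.0535 to 0.183). In the R-spondin arm, which raises WNT signals at the receptor, 3 of 5 genes were called lower, RSPO3 at -5.67 (SE 1.05) and LGR4 at -3.03 (SE 0.35) among them, and RNF43, which removes Frizzled from the surface, was at least 2.76-fold higher. RNF43 had a difference of 0.47 with a floor 2 times as high (adjusted p = 0.205), and was not called without either SC array (adjusted p = 0.0651 and 0.0615) or with normexp background correction (adjusted p = 0.0867), nor was RSPO3 without either (adjusted p = 0.0947 and 0.0871).

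Of 11 genes of the Dishevelled group and destruction complex 2 were called higher and 0 lower. These were CSNK1D, a casein kinase, at 1.62 (SE 0.18, adjusted p = 0.0013), whose 4 probes ranged from -0.86 to 1.62, and DVL2 at 1.28 (SE 0.38, adjusted p = 0.04), which 16 alternatives lost. Among them were either SC array, either NT line, either PA line or I2 left out (adjusted p from 0.0513 to 0.251 for DVL2). In the deposited table of normalized values DVL2 had 0.045 (adjusted p = 0.963). GSK3A and GSK3B, the kinases that the medium of the eSLCs inhibits, were not called. GSK3A had 0.74 (SE 0.13, adjusted p = 0.00779), under the minimum fold, and GSK3B had 0.42 (SE 0.24, adjusted p = 0.211). Of 11 nuclear genes 3 were called higher and 2 lower, the latter being TCF7L2 and LEF1. TLE1 and TLE3, co-repressors that bind TCF factors in place of beta-catenin, were higher by 2.79 (SE 0.27) and 1.29 (SE 0.27). TLE3 was not called without SC P5, nor in the deposited table of normalized values (0.93, adjusted p = 0.353).

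Of 15 target and feedback genes 3 were called higher and 6 lower. AXIN2, a widely used readout of beta-catenin activity, read 117.5 to 397.9 in eSLCs and 26.7 and 17.9 in SCs by its brightest probe, a difference of 3.26 (SE 0.47, adjusted p = 0.00344). Its other probe had 0.38, and the call was lost without SC P10, at a difference of 2.97. In the deposited table of normalized values the difference was only 0.10 and not called (adjusted p = 0.915). TNFRSF19 was higher by 2.11 (SE 0.49, adjusted p = 0.0184), a call that was lost without I2, SC P5 or SC P10 (adjusted p = 0.0589, 0.158 and 0.112). By origin, TNFRSF19 was called against SCs in PA lines (3.57) and not in IVP (1.29) or NT lines (1.475). CCND1, the cyclin D1 gene, read 1579 to 3543 in eSLCs and 18090 and 21950 in SCs, at -3.18 (SE 0.19, adjusted p = 0.000137). CD44 was lower at -6.23 (SE 1.20, adjusted p = 0.00955), which was not called without SC P5 or SC P10 (adjusted p = 0.105 and 0.0895). The list holds genes that many other pathways also set, so its members need not move together.

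Of 6 genes of the planar polarity arm 2 were called higher, VANGL1 at 1.50 (SE 0.17, adjusted p = 0.00161) and DAAM1 at 1.19 (SE 0.30), and PRICKLE1 was called lower at -4.80 (SE 0.26). In the deposited table of normalized values neither VANGL1 (1.23, adjusted p = 0.102) nor DAAM1 (1.06, adjusted p = 0.183) was called. DAAM1 was not called without I9, P1, SC P5 or SC P10 (adjusted p = 0.0502, 0.0572, 0.184 and 0.0661).

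**Figure D4:**
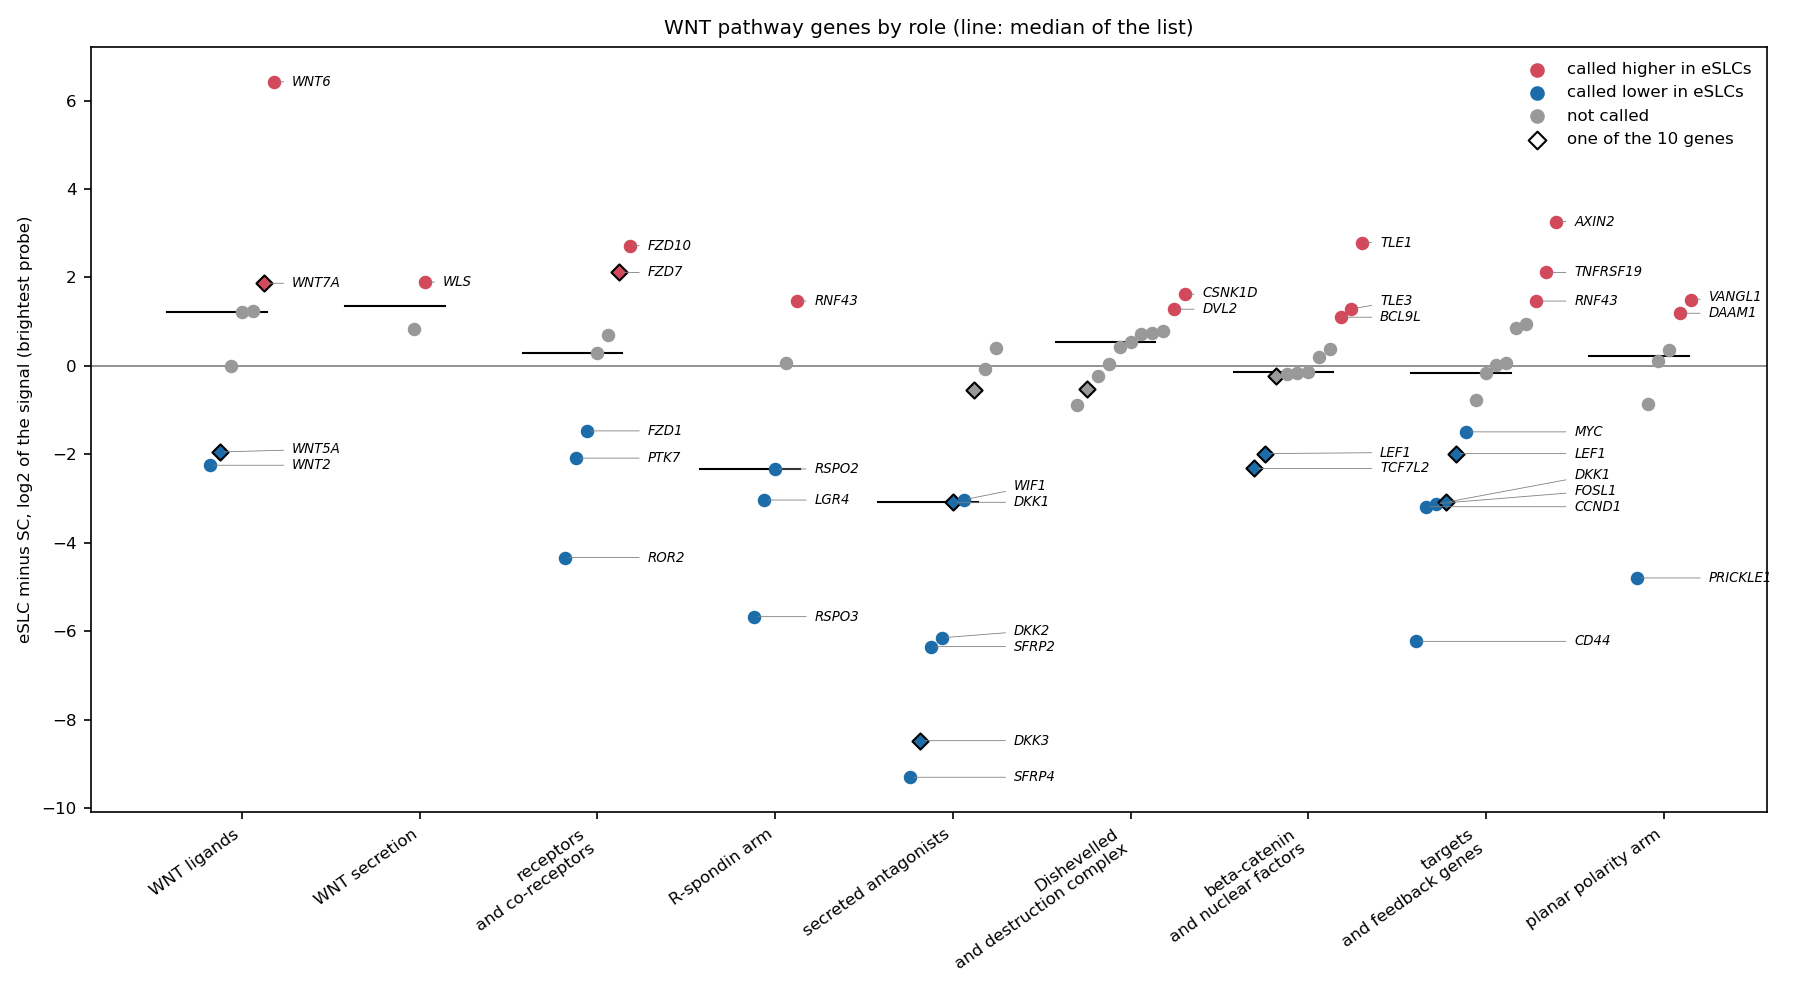
Difference in log2 signal, eSLC minus SC (vertical axis), of the 69 WNT pathway genes tested, by role, with the brightest probe of each gene; red and blue mark genes called higher and lower and carry names, diamonds mark the 10 genes, and a line gives the median of each list. Genes in 2 lists appear in both, and the antagonists hold 6 lower calls and 0 higher ones.

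Over the 8 arrays, the WNT gene whose brightest probe followed that of a member most closely was FZD10 for WNT7A (Pearson r = 0.978), INVS for WNT5A (0.966), CSNK1D for FZD7 (0.973), LGR4 for DKK1 (0.983), SFRP4 for DKK3 (0.982), DKK2 for TCF7L2 (0.994) and SFRP4 for LEF1 (0.999), each among 68 genes compared. For SFRP1, DVL1 and CTNNB1 the highest r was 0.737 with NKD1, 0.807 with CCND1 and 0.925 with CSNK1E. These values are a description, since the 8 arrays fall into 6 eSLC and 2 SC arrays and any gene that separates them correlates with any other that does. LEF1 and SFRP4 were both at the floor on all 6 eSLC arrays, which leaves their r little room below 1. DKK2 was at the floor in every eSLC line but N7.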

How the data were processed

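RNA of 6 eSLC lines and of SCs at 2 passages was labelled with Cy3 and hybridised to 8 one-colour Agilent bovine arrays. The authors scanned the arrays with Feature Extraction and normalized them in GeneSpring. The deposited scanner files hold linear intensity values per spot, and a deposited table holds normalized intensity values, whose normalization is not given in the sources used here. The background-subtracted signal was used, because the processed signal ranked spots differently in 6 of the 8 files (Spearman correlation 0.159 to 0.215, against 0.971 and 0.973 in the other 2). Control spots and outlier spots were left out, spots of 1 probe were averaged, and each array was divided by its 75th percentile (1192 to 4092 scanner units). Probes well above background on both arrays of 1 condition were tested on the log2 scale with limma (3.58.1) under R (4.3.3), with 4 condition means and 8 arrays in 1 fit. Of these steps only the limma fit was tested on simulated data. The simulated noise was normal, with no floor and no slide effect, so that test says nothing of values at the floor. The column of mean signals that the normexp alternative was to use is not in the files used here, and median signals were used.

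Probes were named through the RefSeq table of cattle by transcript accession (26743 probes). All probes of the 10 genes are given. Of the other pathway genes, the 2 largest rises and falls per list among called genes are named. The genes and lists were chosen with earlier results of these data known. No probe, protein or promoter sequence was used here. The number of arrays limits the precision. Figures were drawn with matplotlib version 3.10.9.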

Additional observations from a re-analysis of the deposited data

Results flagged for a closer look

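In line N7 both probes of DKK1 stood apart from the other 5 eSLC lines by Dixon's test on the log2 signals. Probe A_73_P059986 read 52.4 in N7 and at most 20.1 in the others, and probe A_73_P350366 read 46.0 in N7 and was at the floor in the others. For the second probe the floor fixes the outcome, since 5 equal values make any higher one stand apart, and for the first probe 3 of the 6 values were at the floor, so the test says little of either. These were 2 of the 19 member probes with any spread among the lines, and chance gives such a value in about 1 of 20 groups. The 2 probes are of 1 transcript, so they count as 1 pattern. Of 6 hypoblast markers 4 were also highest in N7, and their part in the DKK1 signal was not tested.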

How the results depend on the processing

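Of the 32 called differences between eSLCs and SCs, 30 lost their call with the processed signal (3 of them with the sign turned), 7 with the deposited normalized values, 13 without SC P5 and 12 without SC P10. Scaling to the median and quantile normalization changed no call of a member or named gene against SCs as a whole, and no scaling moved the median of all probes by over 0.1. The numbers of member genes with a probe called higher and lower (2 and 5 for eSLCs, IVP and NT lines, 2 and 6 for PA lines) moved as follows. With the processed signal they were 0 and 1 for eSLCs and 0 and 0 for each origin. With a filter on all 8 arrays, which removes genes below background in a group, 1 was higher in all 4 comparisons and 3 were lower in eSLCs, IVP and NT lines. With the mean of the probes per gene 1 was higher in all 4. With the SC arrays as 1 sample 1 was higher in all 4 and 3 were lower in each origin. With a floor 2 times as high 1 was higher in eSLCs, 0 in NT and 1 in PA lines. For IVP and NT lines, 1 and 0 were higher with normexp background correction, 1 and 1 without a filter and 1 and 1 with slide as a block. Only the conditions compared in the fit, or the methods' t-test unadjusted, gave 1 higher in IVP and 3 lower in NT lines, and the latter 1 lower in PA against IVP lines. The adjusted t-test gave 0 higher and 3 lower in IVP and 0 higher and 1 lower in NT lines. Quantile normalization gave 1 higher in NT lines. Leaving out 1 array gave 1 to 2 higher in each of the 4, 3 to 5 lower in each, and 0 to 1 higher for NT against IVP lines, the 1 without N2. A condition left with 1 array is assumed to vary like the others.

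The difference between eSLCs and SCs changed sign with the processed signal for FZD7 (1.02 and 1.51 by its 2 dimmer probes), DVL1 (2.93), CTNNB1 (1.80, 6.68, 1.98 and 3.20), the brightest probe of TCF7L2 (2.44), LEF1 (3.47) and RNF43 (-1.98). With the deposited normalized values it did so for DVL1 (2.46) and 1 CTNNB1 probe (1.51), and without SC P5 for 2 SFRP1 probes, whose values ran from -1.13 to 0.051 and from -1.07 to 0.28 with 1 array left out. The cause was not tested. No paired analysis was possible because the labels give every array the same replicate number.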

Other observations

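Some WNT genes outside the naming rule were chosen here after their values were seen. FZD1, a Frizzled receptor, was called lower by all 5 of its probes, with differences from -5.89 to -1.47. DKK2, a relative of DKK1, read 710.6 and 1303 in SCs and was at the floor in 5 of the 6 eSLC lines by its brightest probe, at -6.15 (SE 0.24), while its other probe had -0.50. WIF1, which binds WNT ligands, was lower by both probes, at -3.03 (SE 0.23) and -2.46.

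Other ligands varied among the eSLC lines without a call against SCs. WNT11 read 13.3 in P1, 17.3 in I2, 49.0 in P4, 123.2 in I9, 186.5 in N2 and 550.4 in N7, with 28.7 and 33.4 in SCs, a difference of 1.22 (SE 0.92, adjusted p = 0.323). WNT5B was lowest in N7, at 181.3, and highest in N2, at 3505, around 986.2 and 1367 in SCs. RSPO3 read 419.6 in N7 and at most 42.65 in the other lines.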
